A study of Mus musculus with 12 samples.

Results

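The transcription factor NRF2, encoded by Nfe2l2, and the glutathione, thioredoxin and NADPH systems it serves were followed across 4 groups of cultured mouse liver cells. The 37 member genes are NRF2 and its regulators with 32 genes of glutathione synthesis and use, thioredoxin and peroxiredoxin reduction, NADPH supply, conjugation, export and peroxide removal. They were chosen by name from the 53452 genes of the table, with earlier results of these data known. All 37 were found and all passed the filter on low counts, which left 16036 genes.

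The cells, called HSCs in the labels and read here as hepatic stellate cells, were freshly isolated from wild-type (WT) mouse liver, with 3 RNA sequencing libraries in each group. All cultures were kept for 12 h, received new medium and were collected 24 h after that change. Riociguat, a drug that stimulates soluble guanylate cyclase, was present for the last 6 h, 12 h or 24 h, so it was added 18 h, 12 h or 0 h after the medium change. The control group received the solvent DMSO for the last 12 h. Only the 12 h riociguat group therefore shares its time of addition with the control, and in the others the time of exposure and the stage of culture at addition cannot be told apart. The cultures are primary cells, and no source used here gives the dose or the age and sex of the mice. The labels do not tell whether the replicates are separate animals or isolations, so a p-value reflects the spread among these libraries alone, and that spread may be technical. Single libraries are named by group and replicate, so that DMSO 2 is replicate 2 of the DMSO group.

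As background, NRF2 is held in the cytoplasm by KEAP1, which passes it to degradation, until oxidants or electrophiles modify KEAP1. Stabilized NRF2 pairs with small MAF proteins on antioxidant response elements and switches on genes that make glutathione, reduce thioredoxin and regenerate NADPH, the reducing power that these cycles spend. Much of this control acts on the NRF2 protein, which RNA sequencing does not measure. In the liver the pathway is best known from hepatocytes, where it limits injury by reactive drug metabolites, and it also operates in stellate cells.

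Library totals ran from 12953096 to 27358893 counts. A level is given in CPM, which puts each library on the same total after TMM scaling. A change is a log2 fold change from edgeR's quasi-likelihood test, given ± its standard error, with the Benjamini-Hochberg adjusted p over the 16036 genes. A gene is said to rise or fall where that p is under 0.05. The 12 stellate markers, among them Lrat, Des and Pdgfrb, had reads in every library and summed to 2719 to 2821 CPM in DMSO, 3068 to 3178 CPM at 6 h, 2667 to 2791 CPM at 12 h and 2789.5 to 2949.5 CPM at 24 h. Most of this sum was Reln and Nes, with DMSO means of 1366.5 and 668 CPM. From DMSO to 24 h the mean of Lrat went from 4.81 to 9.08 CPM, that of Des from 190 to 132 CPM and that of Pdgfrb from 238 to 186 CPM. Of the 12 stellate markers 5 rose and 3 fell at 24 h, so the sum hides changes in both directions. Reads from genes that mark other liver cells were also found. The 12 hepatocyte markers summed to 1560.1 to 1635 CPM in DMSO, 1333 to 1507 CPM at 6 h, 1466 to 1799.8 CPM at 12 h and 754 to 1063 CPM at 24 h. The 10 endothelial markers summed to 1017 to 1101 CPM in DMSO, 1256 to 1336 CPM at 6 h, 976 to 1025 CPM at 12 h and 868 to 903 CPM at 24 h. The 10 macrophage markers summed to 151 to 161 CPM in DMSO, 135 to 142 CPM at 6 h, 149.9 to 173 CPM at 12 h and 159.7 to 184 CPM at 24 h. Of these 10 Timd4 was at 0 in 7 of the 12 libraries, and the others, with Clec4f, Marco and Vsig4 among them, had reads in every library. From DMSO to 24 h the mean of Lyz2 went from 68.7 to 90.5 CPM and that of Csf1r from 19.8 to 16.8 CPM. Of the 9 macrophage markers tested 1 rose and 0 fell at 24 h. The 6 cholangiocyte markers summed to 534 to 574 CPM in DMSO, 501 to 549 CPM at 6 h, 644 to 736 CPM at 12 h and 968 to 1006 CPM at 24 h. The higher sum at 24 h was that of Spp1, whose mean went from 266 CPM in DMSO to 732 CPM at 24 h. The means of Krt19, Krt7, Epcam and Sox9 were lower at 24 h than in DMSO. Of the 5 cholangiocyte markers tested 1 rose and 0 fell at 24 h. Of all genes 5.94% rose and 7.41% fell at 24 h. A bulk sample cannot tell fewer cells of a type from less RNA per cell, in the sums above or in any level below.

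Most members were highest after the shortest exposure. The highest group mean was at 6 h for 29 of the 37, at 12 h for 2, at 24 h for 3 and in DMSO for 3. The summed level of all members was 21102 to 22135 CPM in DMSO, 28334 to 29557 CPM at 6 h, 24959.7 to 25552 CPM at 12 h and 22565 to 23019 CPM at 24 h, so the 12 libraries formed 4 ranges that did not overlap. The largest parts of the sum were Prdx1, Sqstm1, Prdx6 and Txnrd1, with DMSO means of 2801, 2335, 2140 and 1915 CPM. At 6 h, 29 of the 37 members rose and 1 fell, where 4.48% of all genes tested rose and 5.24% fell. At 12 h, 17 rose and 1 fell, against 2.18% and 3.48% of all genes. At 24 h, 12 rose and 6 fell, against 5.94% and 7.41% of all genes. These shares of all genes also belong beside the counts by role and by marker below. The number that fell at 24 h was 2 without DMSO 3, 3 without DMSO 2, riociguat 24 h 1 or riociguat 24 h 3, and 7 without DMSO 1, so the 6 falls rest on single libraries in part. By library, 29 members lay wholly above DMSO and 1 below at 6 h, 28 and 1 at 12 h, and 16 and 8 at 24 h, while of all genes 12.1% and 13.6%, 10.5% and 11.9%, and 12.6% and 15.7% did. The median log2 fold change over all members was 0.27 at 6 h, 0.17 at 12 h and 0.07 at 24 h, where the median of all genes lay at -0.00442, 0.00248 and -0.00645. The 3 comparisons use the same 3 DMSO libraries, so an error in those libraries enters all of them.

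**Figure D1:**
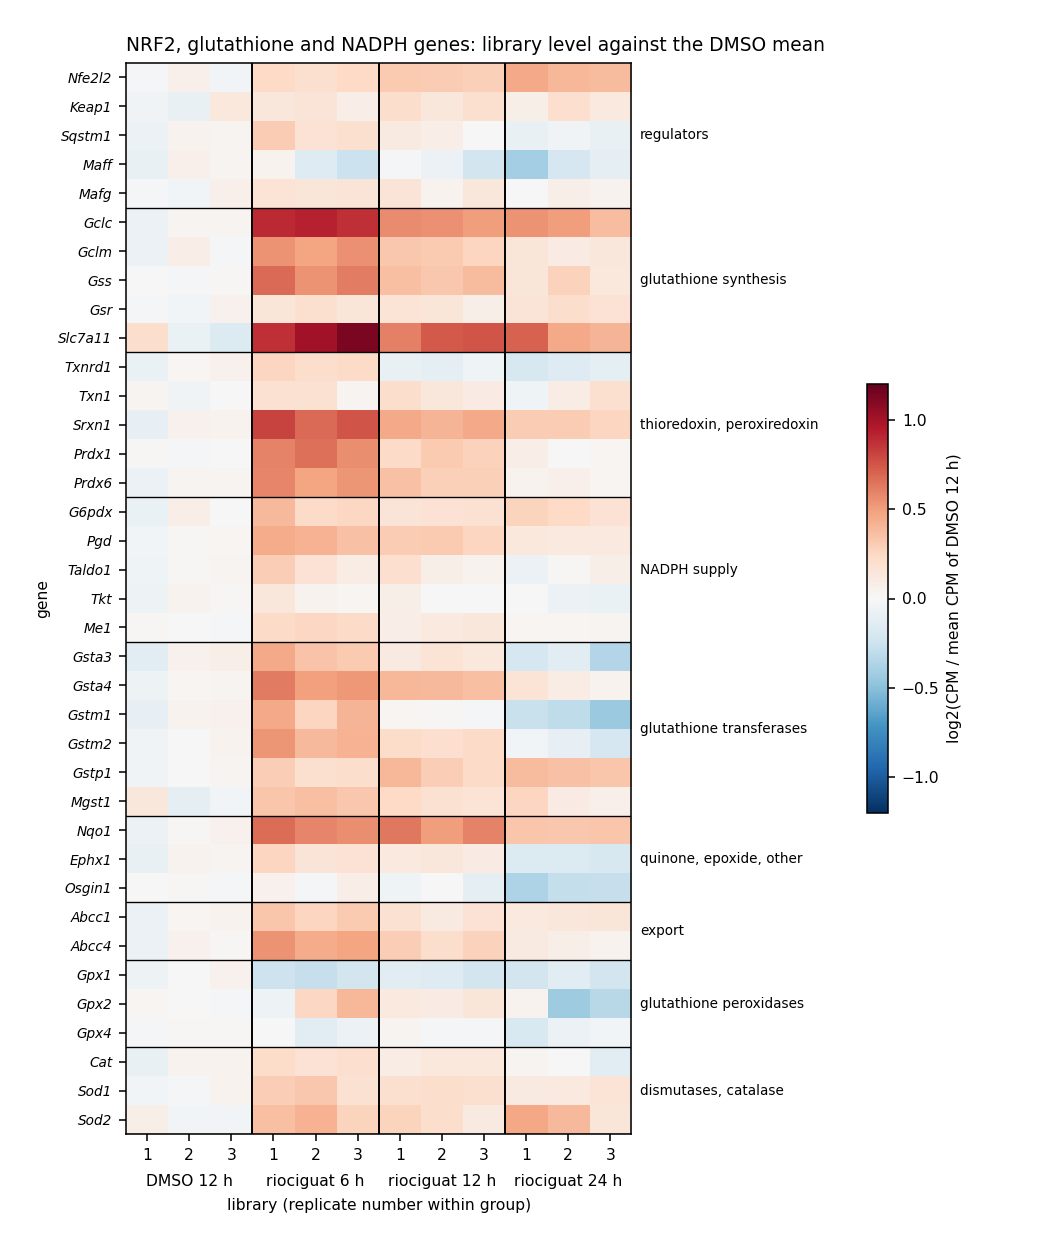
Each row is 1 of the 37 member genes, grouped by role, and each column 1 library; colour gives log2 of the library's CPM over the mean CPM of the 3 DMSO libraries. The 6 h columns are the reddest for most genes, and Gstm1, Gsta3 and Osgin1 turn blue at 24 h.

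The members fell into a few patterns over the 3 exposures. The 10 that rose in all of them were Nfe2l2, Nqo1, Gclc, Gss, Slc7a11, Srxn1, G6pdx, Pgd, Gstp1 and Abcc1. Another 7 rose at 6 h and 12 h and did not pass the test at 24 h, and these were Gclm, Prdx1, Prdx6, Gsta4, Gstm2, Abcc4 and Sod1. At 6 h alone 6 members passed the test, all upward, and these were Sqstm1, Mafg, Taldo1, Me1, Mgst1 and Cat. Gsr and Sod2 rose at 6 h and 24 h. Txnrd1, Gstm1, Gsta3 and Ephx1 rose at 6 h and fell at 24 h. Gpx1 fell at all 3 exposures, Osgin1 fell at 24 h, and Keap1, Maff, Txn1, Tkt, Gpx2 and Gpx4 passed edgeR's test at none of them. Passing the test at one exposure and not at another is no test of a difference between exposures, and those differences are given further on. Calls that rest on a single library are named with each role. Some genes passed the test under other settings. DESeq2 also called Gsr, Me1 and Mgst1 higher at 12 h and Gclm and Sod1 at 24 h. Keap1 passed, higher, at 12 h and 24 h without DMSO 3 (adjusted p = 0.0267 and 0.0426). Without the low-count filter Txn1 was called higher at 12 h and Maff lower at 24 h (adjusted p = 0.0302 and 0.0155), and Maff also without DMSO 1 (adjusted p = 0.0438).

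**Figure D2:**
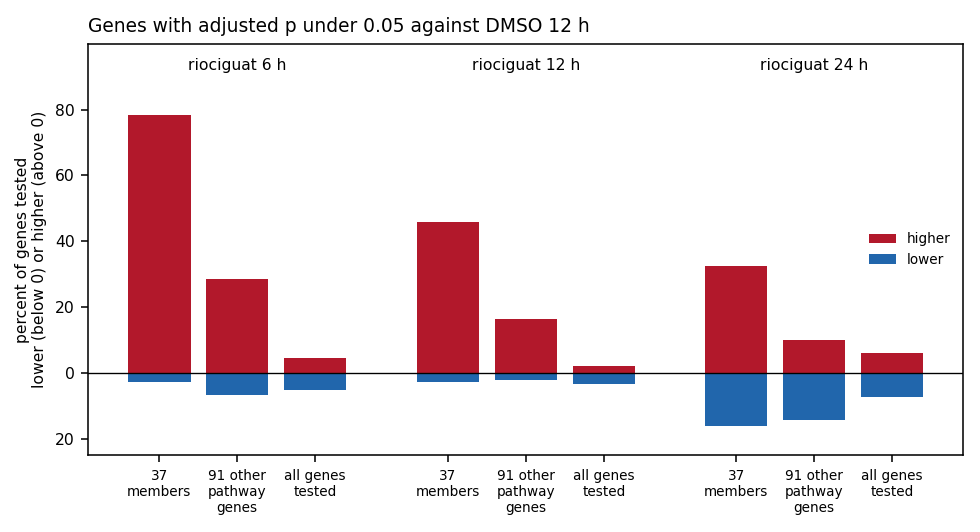
Bars give the percent of genes with adjusted p under 0.05 against DMSO, higher above 0 and lower below 0, for the 37 members, 91 other genes of the same pathways and all 16036 genes tested. At 6 h 29 members were higher and 1 was lower, and at 24 h 12 were higher and 6 lower.

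The start regions of the members, whatever their calls, were searched for the core of the antioxidant response element, the letters TGACNNNGC on either strand. RefSeq's windows of 250 bases before to 50 bases after each start site (GRCm38.p6) were used. Of the 37 members 32 had an entry, and 14 of them (43.8%) held a match. Of all 27025 genes with an entry 14% held one, and of the 32851 windows, since a gene can have several, 12.4% did. Of the 44 windows of members 15 did (34.1%). The list was drawn up from known NRF2 regulators and targets and related genes. A share above that of all genes can come from that choice alone and is a description. By their call at 6 h, 13 of 24 members that rose held a match (54.2%) and 1 of the 8 others did (12.5%), a difference that was not tested. The sequences below are shown because they carry the core upstream of the annotated gene, in 6 members that rose at 6 h (the regulator Nfe2l2 and 5 members from different roles) and in Maff, which did not pass the test. Capitals mark the match in each 5′ to 3′ run, which has up to 20 bases on either side, and a match that begins with GC is read on the opposite strand.
Nfe2l2 (chr2:75704875-75704913, minus strand): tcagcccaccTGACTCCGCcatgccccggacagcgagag
Gclm (chr3:122245403-122245451, plus strand): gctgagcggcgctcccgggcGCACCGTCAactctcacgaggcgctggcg
Prdx1 (chr4:116685446-116685494, plus strand): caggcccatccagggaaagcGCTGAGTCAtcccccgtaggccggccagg
Gsta3 (chr1:21240444-21240492, plus strand): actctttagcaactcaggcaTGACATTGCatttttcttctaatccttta
Abcc4 (chr14:118706220-118706264, minus strand): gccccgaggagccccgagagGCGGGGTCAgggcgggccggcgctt
Sod1 (chr16:90220686-90220734, plus strand): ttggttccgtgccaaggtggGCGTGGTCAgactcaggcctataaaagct
Maff (chr15:79346489-79346537, plus strand): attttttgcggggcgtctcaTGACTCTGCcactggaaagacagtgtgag
Read as the motif, Prdx1 holds TGACTCAGC, Gclm holds TGACGGTGC and both Maff and a further Abcc4 start region hold TGACTCTGC. A match is a description of these letters and not a measured binding site, and a window without one says nothing about the factor. Gclc, Gsr, Prdx6, Gsta4 and Abcc1 had no entry.

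Among the regulators, Nfe2l2 itself rose at all 3 exposures, with a fitted change that was larger at each longer one. Neither step between neighbouring exposures passed edgeR's test, while DESeq2 called the step from 12 h to 24 h (adjusted p = 0.0413). The time of addition changed along with the exposure. Nfe2l2 (ENSMUSG00000015839, chromosome 2, 75675513 to 75704641, minus strand) had 339, 359 and 336 CPM in the DMSO libraries, 408, 395 and 408 CPM after 6 h of riociguat, 427, 427 and 420.5 CPM after 12 h and 472, 455 and 449 CPM after 24 h. No library of a later exposure was below any library of an earlier one, and all 9 riociguat libraries lay above all 3 DMSO libraries. Its log2 fold change was 0.23 ± 0.04 at 6 h (adjusted p = 0.00102), 0.30 ± 0.04 at 12 h (adjusted p = 7.08e-05) and 0.41 ± 0.04 at 24 h (adjusted p = 1.36e-06). Only Nfe2l2 and Gstp1 had fitted changes that grew with exposure time, while 27 of the 37 members had their largest at 6 h and their smallest at 24 h.

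Keap1, the adaptor that marks NRF2 for degradation, had 61.6, 59.7 and 69.1 CPM in the DMSO libraries, 69.6, 70.5 and 67.0 CPM after 6 h of riociguat, 73.5, 69.6 and 72.3 CPM after 12 h and 66.5, 73.2 and 68.9 CPM after 24 h. The 12 h libraries lay just above those of DMSO, with a log2 fold change of 0.18 ± 0.06 (95% interval 0.05 to 0.31, adjusted p = 0.107), and the other exposures overlapped DMSO. Sqstm1 encodes p62, the autophagy receptor that can displace NRF2 from KEAP1. It rose at 6 h by 0.23 ± 0.04 (adjusted p = 0.00301), was 0.06 ± 0.04 at 12 h and was -0.07 ± 0.04 at 24 h, where neither passed the test. Of the small MAF partners, Mafg rose at 6 h by 0.15 ± 0.04 (adjusted p = 0.0323) and Maff was at -0.13 ± 0.08 (adjusted p = 0.4). The Mafg call failed when DMSO 1, DMSO 2, riociguat 6 h 1, riociguat 6 h 2 or riociguat 6 h 3 was left out (adjusted p up to 0.135).

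The genes that import cystine and build glutathione include Slc7a11 and Gclc, the members with the largest changes at 6 h. Slc7a11 encodes the cystine importer xCT, Gclc and Gclm the catalytic and modifier subunits of glutamate-cysteine ligase, the rate-limiting enzyme, and Gss the synthase of the second step. All 5 genes of this role, with the glutathione reductase Gsr, rose at 6 h, and 4 of the 5 at 12 h and at 24 h.

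Gclc (ENSMUSG00000032350, chromosome 9, 77754535 to 77794485, plus strand) had 279, 299 and 298 CPM in the DMSO libraries, 544, 552 and 535 CPM after 6 h of riociguat, 433, 427 and 414 CPM after 12 h and 423, 414 and 377 CPM after 24 h. All 9 riociguat libraries lay above the DMSO libraries, and all 6 h libraries lay above those of 12 h and 24 h, which overlapped each other. The log2 fold change was 0.90 ± 0.05 at 6 h (adjusted p = 3.5e-09), 0.54 ± 0.05 at 12 h (adjusted p = 5.78e-07) and 0.47 ± 0.05 at 24 h (adjusted p = 2.04e-06). Slc7a11 (ENSMUSG00000027737, chromosome 3, 49892526 to 50443614, minus strand) had 460.2, 376 and 355 CPM in the DMSO libraries, 728, 798 and 870.2 CPM after 6 h of riociguat, 606, 661 and 671 CPM after 12 h and 650.4, 545 and 526 CPM after 24 h. Its DMSO libraries differed among themselves, with replicate 1 above the other two, and yet no riociguat library reached down to them. Its changes were 1.01 ± 0.09 (adjusted p = 1.28e-06), 0.70 ± 0.09 (adjusted p = 7.08e-05) and 0.53 ± 0.09 (adjusted p = 0.000663) at the 3 exposures.

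Gss had 105, 105 and 107 CPM in the DMSO libraries, 169, 154 and 162 CPM after 6 h of riociguat, 136, 133 and 138 CPM after 12 h and 117, 128 and 115 CPM after 24 h. It rose by 0.61 ± 0.05 at 6 h (adjusted p = 3.14e-07), 0.36 ± 0.05 at 12 h and 0.18 ± 0.05 at 24 h (adjusted p = 0.0206), and the groups did not overlap DMSO. The 24 h call failed when DMSO 2 or riociguat 24 h 2 was left out (adjusted p up to 0.0792). Gclm rose by 0.52 ± 0.04 at 6 h and 0.30 ± 0.04 at 12 h (adjusted p = 3.89e-07 and 0.000181), and its 24 h change of 0.13 ± 0.04 missed the threshold (adjusted p = 0.0558). Gsr returns oxidized glutathione to its reduced form with NADPH. Its change was 0.16 ± 0.04 at 6 h (adjusted p = 0.0237), 0.13 ± 0.04 at 12 h (adjusted p = 0.103) and 0.18 ± 0.04 at 24 h (adjusted p = 0.00848). The 6 h call failed when DMSO 1, DMSO 2, riociguat 6 h 2 or riociguat 6 h 3 was left out (adjusted p up to 0.108), and the 24 h call failed when DMSO 2 was left out (adjusted p = 0.0504).

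**Figure D3:**
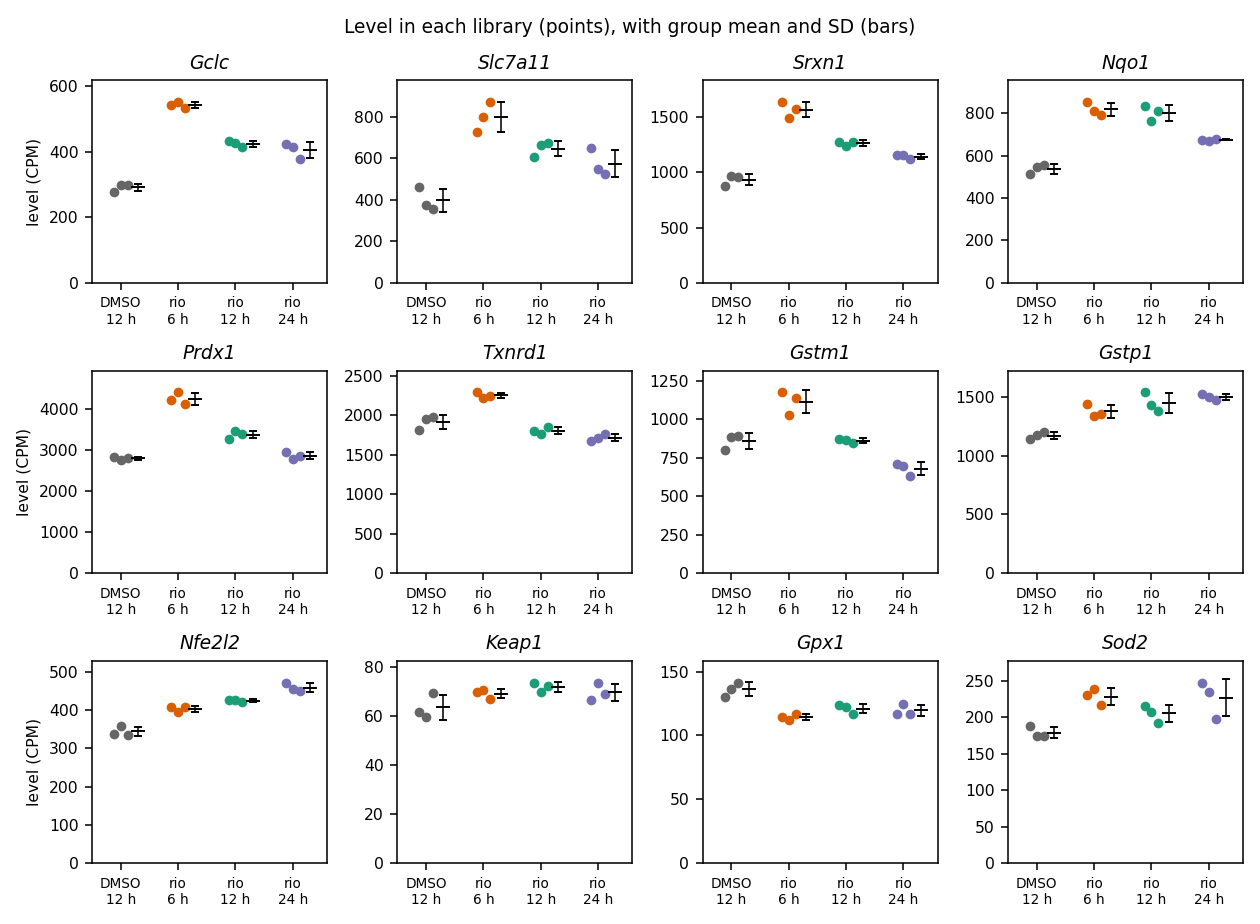
Points are the CPM level in each library of 12 members, with the group mean and SD (n = 3) beside them; every axis starts at 0. Gclc and Slc7a11 peak at 6 h and stay above DMSO, Txnrd1 and Gstm1 fall below DMSO at 24 h, and Nfe2l2 and Gstp1 are above DMSO in all riociguat libraries.

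In the thioredoxin and peroxiredoxin branch, which removes peroxides with thioredoxin as the electron donor, 4 of 5 members rose at 6 h and 3 of 5 at 12 h. At 24 h 1 rose and 1 fell. Srxn1 (ENSMUSG00000032802, chromosome 2, 152105516 to 152111376, plus strand), sulfiredoxin, which repairs overoxidized peroxiredoxins, had 873, 969 and 959 CPM in the DMSO libraries, 1637, 1495 and 1573 CPM after 6 h of riociguat, 1279, 1239.6 and 1278 CPM after 12 h and 1154, 1155 and 1118 CPM after 24 h. Its 4 groups did not overlap, with a log2 fold change of 0.75 ± 0.05 at 6 h (adjusted p = 1.64e-08), 0.44 ± 0.05 at 12 h (adjusted p = 5.13e-06) and 0.29 ± 0.05 at 24 h (adjusted p = 0.000278).

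Prdx1 (ENSMUSG00000028691, chromosome 4, 116685544 to 116700822, plus strand), a cytosolic peroxiredoxin, had 2838, 2755 and 2811 CPM in the DMSO libraries, 4227, 4417 and 4127 CPM after 6 h of riociguat, 3285, 3475 and 3393 CPM after 12 h and 2960.4, 2797 and 2851 CPM after 24 h. It rose by 0.60 ± 0.04 at 6 h (adjusted p = 2.73e-08) and 0.27 ± 0.04 at 12 h (adjusted p = 0.000186), and its 24 h libraries overlapped DMSO (log2 fold change 0.03 ± 0.04, adjusted p = 0.627). Prdx6, which uses glutathione in place of thioredoxin, followed the same course with 0.53 ± 0.04, 0.31 ± 0.04 and 0.04 ± 0.04. Thioredoxin itself, Txn1, passed the test at no exposure, with 0.13 ± 0.06, 0.15 ± 0.06 and 0.08 ± 0.06 (adjusted p = 0.176, 0.179 and 0.398).

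Txnrd1, the cytosolic thioredoxin reductase (ENSMUSG00000020250), changed direction between exposures. It had 1809, 1951 and 1984 CPM in the DMSO libraries, 2292, 2219 and 2243 CPM after 6 h of riociguat, 1796, 1769 and 1851 CPM after 12 h and 1677, 1718 and 1761 CPM after 24 h. The 6 h libraries were the highest and lay above all DMSO libraries, and the 24 h libraries lay below all of them. It rose by 0.23 ± 0.04 at 6 h (adjusted p = 0.00115), was at -0.08 ± 0.04 at 12 h (adjusted p = 0.308), and fell by 0.16 ± 0.04 at 24 h (adjusted p = 0.0166). The 24 h call failed when DMSO 2, DMSO 3, riociguat 24 h 1 or riociguat 24 h 2 was left out (adjusted p up to 0.125).

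NADPH is supplied by the pentose phosphate pathway and by malic enzyme. Of these members 4 of 5 rose at 6 h, 2 of 5 at 12 h and 2 of 5 at 24 h. Pgd, the second NADPH-forming dehydrogenase of the pathway, had 1038, 1070.2 and 1075 CPM in the DMSO libraries, 1445, 1419 and 1355 CPM after 6 h of riociguat, 1309.8, 1319 and 1266 CPM after 12 h and 1158, 1152 and 1154 CPM after 24 h. It rose by 0.41 ± 0.04 (adjusted p = 1.5e-06), 0.29 ± 0.04 (adjusted p = 6.16e-05) and 0.12 ± 0.04 (adjusted p = 0.0379) at the 3 exposures. G6pdx, the first and rate-limiting dehydrogenase, rose by 0.29 ± 0.05 at 6 h (adjusted p = 0.000818), 0.17 ± 0.05 at 12 h (adjusted p = 0.0496) and 0.22 ± 0.05 at 24 h (adjusted p = 0.00485). All 9 riociguat libraries of both genes lay above DMSO. The 12 h call of G6pdx failed when DMSO 1, DMSO 3, riociguat 12 h 1, riociguat 12 h 2 or riociguat 12 h 3 was left out (adjusted p up to 0.134), and the 24 h call of Pgd failed when DMSO 1, DMSO 2, riociguat 24 h 1, riociguat 24 h 2 or riociguat 24 h 3 was left out (adjusted p up to 0.0899).

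The malic enzyme Me1 rose at 6 h by 0.24 ± 0.04 (adjusted p = 0.000384) and was at 0.11 ± 0.04 and 0.03 ± 0.04 later. Of the carbon-shuffling enzymes of the non-oxidative branch, transaldolase Taldo1 rose at 6 h by 0.19 ± 0.06 (adjusted p = 0.0396) and transketolase Tkt was at 0.07 ± 0.04 (95% interval -0.03 to 0.16, adjusted p = 0.401). The Taldo1 call failed when DMSO 1, DMSO 2, DMSO 3, riociguat 6 h 1 or riociguat 6 h 2 was left out (adjusted p up to 0.164).

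All 6 glutathione transferases, which couple glutathione to electrophiles, rose at 6 h, while 3 of 6 rose at 12 h, and at 24 h 1 rose and 2 fell. Gstm1 (ENSMUSG00000058135, chromosome 3, 108012255 to 108017973) had 799, 885 and 890.1 CPM in the DMSO libraries, 1176, 1029 and 1139 CPM after 6 h of riociguat, 873, 866 and 845 CPM after 12 h and 711, 697 and 631 CPM after 24 h. The 6 h libraries stood above and the 24 h libraries below those of DMSO, and the 12 h libraries lay within the DMSO range. Its log2 fold change was 0.38 ± 0.06 at 6 h (adjusted p = 0.000289), 0.01 ± 0.06 at 12 h (adjusted p = 0.984) and -0.34 ± 0.06 at 24 h (adjusted p = 0.000573).

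Gsta3 also rose and later fell, with 123, 139 and 142 CPM in the DMSO libraries, 184, 170.0 and 167 CPM after 6 h of riociguat, 144, 151 and 147 CPM after 12 h and 116, 123 and 105 CPM after 24 h. It rose by 0.37 ± 0.06 at 6 h (adjusted p = 0.000814) and fell by 0.23 ± 0.06 at 24 h (adjusted p = 0.0206). The 24 h call failed when DMSO 2, DMSO 3, riociguat 24 h 1 or riociguat 24 h 3 was left out (adjusted p up to 0.135). Gsta4, which conjugates the lipid peroxidation product 4-hydroxynonenal, rose by 0.55 ± 0.04 at 6 h and 0.38 ± 0.04 at 12 h and was at 0.10 ± 0.04 at 24 h. Gstm2 rose by 0.45 ± 0.05 at 6 h and 0.22 ± 0.05 at 12 h, a call that failed when DMSO 2 or riociguat 12 h 3 was left out (adjusted p up to 0.064), and was at -0.11 ± 0.05 at 24 h. The microsomal Mgst1 rose at 6 h by 0.34 ± 0.06 (adjusted p = 0.00147).

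Among the transferases, Gstp1 was the 1 that rose at all 3 exposures. Gstp1 (ENSMUSG00000060803, chromosome 19, 4035407 to 4037985, minus strand) had 1139.9, 1175 and 1199 CPM in the DMSO libraries, 1441, 1336 and 1359 CPM after 6 h of riociguat, 1541, 1434 and 1377 CPM after 12 h and 1524, 1498 and 1471 CPM after 24 h. All 9 riociguat libraries lay above DMSO, and the 12 h libraries overlapped those of 6 h and of 24 h. The change was 0.24 ± 0.04, 0.31 ± 0.04 and 0.35 ± 0.04 at 6 h, 12 h and 24 h (adjusted p = 0.00237, 0.000236 and 3.35e-05). In DMSO Gstp1 also had the highest level of all members per length, 1427 CPM per kb of exons, followed by Prdx1 with 1101, Prdx6 with 857 and Sqstm1 with 827, while Keap1 had 14.1 and Gpx2 7.86. Reads of Gstp1 can belong to its near copy Gstp2, since 38.5% of its 31-base stretches also occur in other genes. The same share was 38.9% for Gpx4, 36.9% for Me1, 28.8% for Gstm1, 26.7% for Sod2 and 23.6% for G6pdx, so their levels are uncertain, and 0 for Nfe2l2, Nqo1, Gclc, Gsr and Txnrd1.

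Hepatocytes are rich in glutathione transferases, so the hepatocyte markers are set beside them. Of the 12 hepatocyte markers 0 passed edgeR's test at 6 h or 12 h, 2 and 0 had an unadjusted p under 0.05, DESeq2 called 0 at either, and 11 fell at 24 h. Without the filter on low counts 4 fell at 6 h. Their sum overlapped that of DMSO at 12 h, lay below it at 6 h, when the transferases were higher, and was lowest at 24 h, when Gstm1, Gsta3 and Ephx1 were below DMSO. Their part in these results was not tested. The 5 genes of the aryl hydrocarbon receptor response, a pathway that also regulates Nqo1 and some transferases, summed to 753 to 758 CPM in DMSO, 1971 to 2048 CPM at 6 h, 1312 to 1365 CPM at 12 h and 1114 to 1142 CPM at 24 h, and 4 of the 5 rose at each exposure. Its part was not tested either. Of the 10 endothelial markers 4 rose at 6 h, and at 24 h 2 rose and 4 fell. Of all genes 4.48% rose at 6 h, 2.18% at 12 h and 5.94% at 24 h, and 7.41% fell at 24 h.

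**Figure D4:**
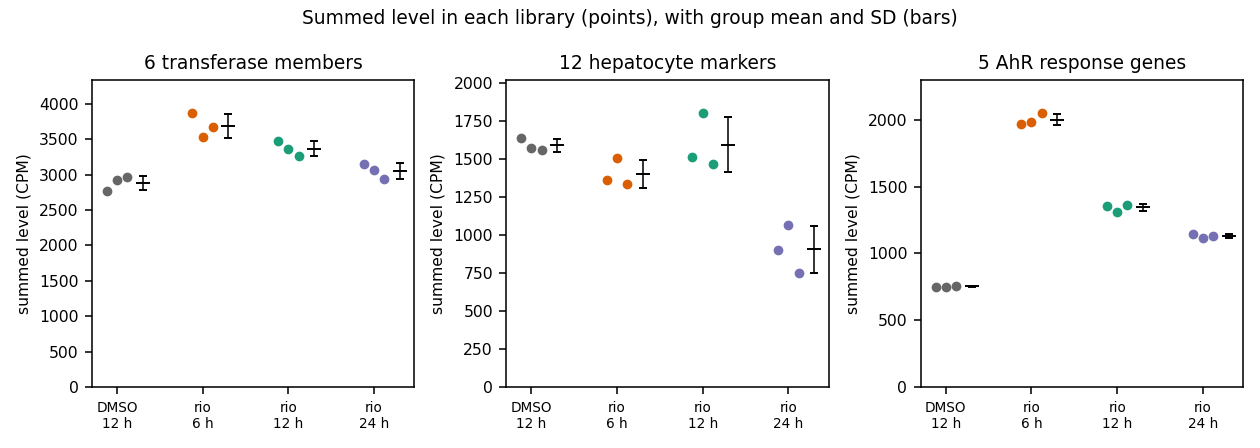
Points are the summed CPM in each library of the 6 transferase members, 12 hepatocyte markers and 5 genes of the aryl hydrocarbon receptor (AhR) response, with group mean and SD (n = 3). The transferase and AhR sums are highest at 6 h, and the hepatocyte sum is lowest at 24 h.

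Nqo1 (ENSMUSG00000003849, chromosome 8, 107388225 to 107403206, minus strand) encodes a quinone reductase that is a standard readout of NRF2 activity. It had 513, 544 and 557 CPM in the DMSO libraries, 853, 809 and 792 CPM after 6 h of riociguat, 834, 762 and 812 CPM after 12 h and 676, 672 and 678 CPM after 24 h. The 6 h and 12 h libraries overlapped, the 24 h libraries lay below both, and every riociguat library was above DMSO. The log2 fold change was 0.60 ± 0.04 at 6 h (adjusted p = 1.45e-07), 0.58 ± 0.04 at 12 h (adjusted p = 2.19e-07) and 0.33 ± 0.04 at 24 h (adjusted p = 7.39e-05). Ephx1, the microsomal epoxide hydrolase, rose by 0.19 ± 0.04 at 6 h (adjusted p = 0.00853) and fell by 0.17 ± 0.04 at 24 h (adjusted p = 0.0145), and this later call failed when DMSO 2, DMSO 3 or riociguat 24 h 3 was left out (adjusted p up to 0.0941). Osgin1, an oxidative stress-induced growth inhibitor, had 137, 138 and 134 CPM in the DMSO libraries, 142, 134 and 144 CPM after 6 h of riociguat, 131, 136 and 126 CPM after 12 h and 106, 111 and 112 CPM after 24 h. It overlapped DMSO at 6 h and 12 h and fell by 0.31 ± 0.05 at 24 h (adjusted p = 0.000195).

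Both export pumps rose at 6 h and 12 h. Abcc4, which exports cyclic nucleotides as well as conjugates, had 210.3, 229.7 and 223 CPM in the DMSO libraries, 322, 301 and 307 CPM after 6 h of riociguat, 272, 255 and 268 CPM after 12 h and 238, 233 and 228 CPM after 24 h. It rose by 0.49 ± 0.04 at 6 h (adjusted p = 1.65e-06) and 0.26 ± 0.04 at 12 h (adjusted p = 0.00111), and overlapped DMSO at 24 h with 0.07 ± 0.05 (adjusted p = 0.32). Abcc1, which exports glutathione conjugates, rose by 0.30 ± 0.04, 0.15 ± 0.04 and 0.13 ± 0.04 (adjusted p = 9.19e-05, 0.0298 and 0.0386). Its 12 h call failed when DMSO 1, DMSO 2, riociguat 12 h 1 or riociguat 12 h 3 was left out (adjusted p up to 0.0962), and its 24 h call failed when DMSO 1, DMSO 2, riociguat 24 h 2 or riociguat 24 h 3 was left out (adjusted p up to 0.114).

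Of the 3 glutathione peroxidases Gpx1 fell and the others did not pass the test against DMSO. Gpx1, the main cytosolic enzyme, had 130.4, 137 and 141 CPM in the DMSO libraries, 115, 112 and 117 CPM after 6 h of riociguat, 124, 122 and 117 CPM after 12 h and 117, 125 and 117 CPM after 24 h. All 9 riociguat libraries lay below all DMSO libraries. It fell by 0.25 ± 0.05 at 6 h (adjusted p = 0.00218), 0.17 ± 0.05 at 12 h (adjusted p = 0.0407) and 0.19 ± 0.05 at 24 h (adjusted p = 0.0123). The 12 h call failed when DMSO 2, DMSO 3, riociguat 12 h 1, riociguat 12 h 2 or riociguat 12 h 3 was left out (adjusted p up to 0.242), and the 24 h call failed when DMSO 3, riociguat 24 h 1 or riociguat 24 h 3 was left out (adjusted p up to 0.094). Gpx4, which reduces lipid peroxides in membranes, was at -0.06 ± 0.05, -0.01 ± 0.05 and -0.09 ± 0.05, and Gpx2, at 8.39 CPM in DMSO the member with the fewest reads per length, at 0.22 ± 0.14, 0.12 ± 0.14 and -0.22 ± 0.14. Neither passed the test against DMSO at any exposure, and their 95% intervals at 6 h were -0.16 to 0.04 and -0.08 to 0.52.

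Of the superoxide dismutases and catalase, all 3 rose at 6 h. The mitochondrial Sod2 had 188, 175 and 175 CPM in the DMSO libraries, 230.3, 239 and 216 CPM after 6 h of riociguat, 215, 208 and 193 CPM after 12 h and 248, 234 and 198 CPM after 24 h. It rose at 6 h by 0.35 ± 0.07 (adjusted p = 0.00295) and at 24 h by 0.34 ± 0.07 (adjusted p = 0.00273), and its 12 h change of 0.20 ± 0.07 did not pass (adjusted p = 0.126), although its libraries lay above DMSO there too. At 12 h Sod2 was called higher under 3 other settings. These were no low-count filter, replicate number added to the fit, and only the 6 libraries compared. The cytosolic Sod1 rose by 0.27 ± 0.04 at 6 h and 0.20 ± 0.04 at 12 h (adjusted p = 0.000625 and 0.011), and the second call failed when DMSO 2 was left out (adjusted p = 0.063). Cat, the peroxisomal catalase, rose at 6 h by 0.20 ± 0.05 (adjusted p = 0.0122).

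**Figure D5:**
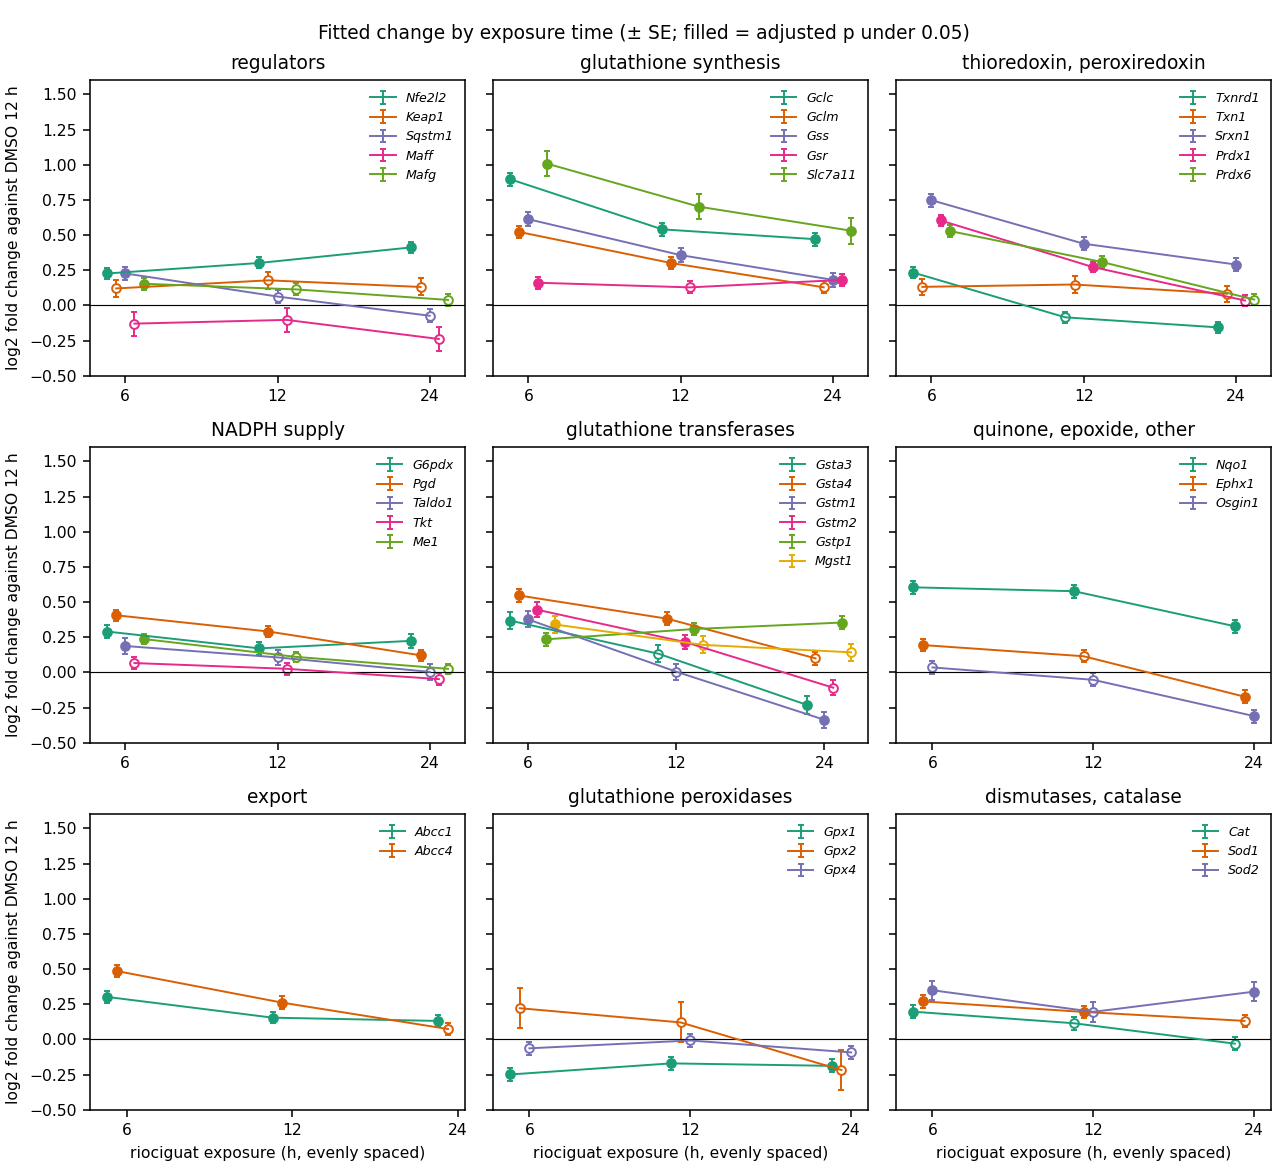
Fitted log2 fold change against DMSO 12 h (± SE) for each member by role, at 6, 12 and 24 h of riociguat (evenly spaced); filled symbols have adjusted p under 0.05. Most lines slope down with exposure time, and those of Nfe2l2 and Gstp1 slope up.

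The exposures were then compared directly with each other. From 6 h to 12 h, 14 of the 37 members fell and none rose, where 3.52% of all genes fell and 2.57% rose. From 12 h to 24 h, 12 fell and none rose, against 1.71% and 1.37% of all genes. At an unadjusted p under 0.05, 0 members were higher in the first and 1 in the second of these comparisons, and DESeq2 called 0 and 1 higher, in both cases Nfe2l2. Between the ends, 24 h against 6 h, 25 fell and 1 rose, against 8.13% and 7.16% of all genes. These 3 comparisons share their riociguat libraries in pairs.

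Some members passed the test in 1 of the 2 intervals and others in both. Txnrd1, Srxn1, Gclc and Gss fell from 6 h to 12 h, by 0.32 ± 0.04, 0.31 ± 0.05, 0.36 ± 0.05 and 0.26 ± 0.05, and did not pass edgeR's test from 12 h to 24 h, where DESeq2 called Gss and Srxn1 lower (log2 fold change -0.17 and -0.14, adjusted p = 0.0363 and 0.0318). Nqo1, Ephx1 and Osgin1 did not pass it in the first interval and fell in the second, by 0.25 ± 0.04, 0.29 ± 0.04 and 0.26 ± 0.05 (adjusted p = 0.00332, 0.000945 and 0.00357). Abcc1 and Sqstm1 also passed edgeR's test in the first interval alone and Pgd in the second alone, although DESeq2 called Pgd lower in the first (adjusted p = 0.00872). Whether the 2 intervals differ was not tested for these genes. Gclm, Prdx1, Prdx6, Gsta3, Gsta4, Gstm1, Gstm2 and Abcc4 fell in both. Leaving out single libraries lost the first-interval calls of Gsta3, Gsta4, Gstm2, Abcc1 and Sqstm1. In the second interval it lost those of Gclm, Pgd and Abcc4. Gstm1 fell by 0.37 ± 0.06 and then by 0.34 ± 0.06 (adjusted p = 0.000413 and 0.00164), and Prdx1 by 0.33 ± 0.04 and 0.24 ± 0.04 (adjusted p = 3.39e-05 and 0.00146).

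From 6 h to 24 h the largest decline was that of Gstm1, by 0.71 ± 0.06 (adjusted p = 1.55e-07), followed by Gsta3 with 0.60 ± 0.06 and Prdx1 with 0.57 ± 0.04 on the log2 scale. Nfe2l2 was the 1 member that rose, by 0.19 ± 0.04 (adjusted p = 0.00298), while Gclc fell by 0.43 ± 0.05, Srxn1 by 0.46 ± 0.05 and Nqo1 by 0.28 ± 0.04. Gstp1 was at 0.12 ± 0.04 and did not pass edgeR's test (adjusted p = 0.0866), while DESeq2 called it higher (adjusted p = 0.0225). It was also called higher without the low-count filter and without riociguat 6 h 1. Nfe2l2 was thus highest in the 24 h libraries, in which 25 members were lower than at 6 h. Keap1 was at 0.01 ± 0.06 between these exposures. The falls of Gpx2, Taldo1, Mgst1 and Sod1 from 6 h to 24 h were each lost under some other settings. DESeq2 did not call that of Gpx2 (adjusted p = 0.0611).

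The wider pathway was described from 91 further genes, all of which were tested. They too were chosen with earlier results of these data known. At 6 h 26 rose and 6 fell, where 4.48% and 5.24% of all genes did. At 12 h 15 rose and 2 fell, against 2.18% and 3.48% of all genes, and at 24 h 9 rose and 13 fell, against 5.94% and 7.41%. The rises at 6 h were most frequent in 2 roles. Of 13 enzymes of carbonyl and quinone reduction and UDP-glucuronate supply 10 rose, and of 7 genes of heme and iron handling 6 rose. Of 7 further regulators none passed edgeR's test at 6 h, although 2 had an unadjusted p under 0.05, and of 12 further glutaredoxins, thioredoxins and peroxiredoxins none rose and 2 fell. Of 14 further genes listed under NADPH supply 1 rose and 3 fell. At 12 h the total was lower without DMSO replicate 2, with 11 called, and without riociguat 12 h replicate 1, with 10.

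Slc40a1, the iron exporter ferroportin and an NRF2 target, had 152, 159 and 148 CPM in the DMSO libraries, 273, 267 and 282 CPM after 6 h of riociguat, 215, 201 and 209 CPM after 12 h and 186, 168 and 167 CPM after 24 h. It rose by 0.84 ± 0.05 at 6 h (adjusted p = 1.4e-08) and 0.44 ± 0.05 at 12 h (adjusted p = 1.26e-05). Hmox1, the inducible heme oxygenase, had 3379.5, 3728 and 3785 CPM in the DMSO libraries, 6505, 5940.4 and 6109 CPM after 6 h of riociguat, 4306, 4041 and 4124 CPM after 12 h and 3275, 3322 and 3224 CPM after 24 h. It rose by 0.77 ± 0.05 at 6 h (adjusted p = 1.64e-08) and 0.20 ± 0.05 at 12 h (adjusted p = 0.0168), and fell by 0.15 ± 0.05 at 24 h (adjusted p = 0.0423). The 12 h call failed when riociguat 12 h 1 was left out (adjusted p = 0.0703), and the 24 h call failed when DMSO 2, DMSO 3, riociguat 24 h 1, riociguat 24 h 2 or riociguat 24 h 3 was left out (adjusted p up to 0.235).

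Slc6a9, a glycine transporter that supplies glutathione synthesis, rose by 0.70 ± 0.06 at 6 h (adjusted p = 8.98e-07). Ugdh, which makes UDP-glucuronate, rose at all 3 exposures by 0.43 ± 0.04, 0.36 ± 0.04 and 0.40 ± 0.04. At 24 h the smallest p-values included that of Gsta1, an alpha-class transferase, which had 82.8, 86.8 and 95.5 CPM in the DMSO libraries, 124, 124 and 119.7 CPM after 6 h of riociguat, 89.1, 86.1 and 94.0 CPM after 12 h and 55.7, 57.3 and 48.4 CPM after 24 h. It rose by 0.47 ± 0.06 at 6 h (adjusted p = 0.000111) and fell by 0.72 ± 0.07 at 24 h (adjusted p = 1.03e-06), the direction of Gsta3 and Gstm1. Prdx5, a peroxiredoxin of mitochondria and peroxisomes, rose at 24 h by 0.37 ± 0.05 (adjusted p = 5.8e-05) and was at 0.08 ± 0.05 at 6 h.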

How the data were processed

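RNA sequencing of 12 libraries was analysed from the authors' deposited table, whose values are expected counts per gene. The submitters' processing notes name FastQC, fastp, Salmon and DESeq2, with GRCm38 as genome build. Salmon shares reads between similar transcripts. Versions, annotation release and strand handling are not given in the sources used here. All deposited values were whole, so rounding changed 0 of them. Symbols were matched for 53355 of 53452 genes, and 0 value columns were left unused. Gene positions and exon lengths come from GENCODE vM21 and start windows from RefSeq.

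The test was edgeR's quasi-likelihood F test (version 4.0.16, R 4.3.3, two-sided) after filterByExpr and TMM scaling, fitted once to all 12 libraries by group alone. The biological coefficient of variation was 0.0798, with 8 residual degrees of freedom. P-values were adjusted by Benjamini-Hochberg over 16036 genes in each of 6 comparisons, with no limit on the fold. No 2 libraries of a group agreed within sampling noise (chi-square per degree of freedom 4.08 to 16.0, highest for pairs with DMSO replicate 1). Mitochondrial genes took 2.61% to 4.75% of counts. Library depth sets how small a change can be seen.

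Alternatives were RLE size factors, no low-count filter, DESeq2 1.42.0, only the 6 libraries compared, a replicate block, and each library left out. The steps were tested on simulated counts. The members, the 91 pathway genes and the 68 marker genes were chosen with earlier results of these data known. Every member is named. Of the 91, the 4 with the smallest p in each comparison with DMSO could be named, and Hmox1.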

Additional observations from a re-analysis of the deposited data

Results flagged for a closer look

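Against DMSO, 4 members rose at 6 h and fell at 24 h, and are singled out because the direct comparison of 24 h with 6 h also passed. Since they were picked for opposite calls against the same DMSO libraries, that difference is a description and adds no support. Gstm1 differed by -0.71 ± 0.06 on the log2 scale (adjusted p = 1.55e-07), Gsta3 by -0.60 ± 0.06 (adjusted p = 2.99e-06), Txnrd1 by -0.39 ± 0.04 (adjusted p = 3.18e-06) and Ephx1 by -0.37 ± 0.04 (adjusted p = 1.44e-05). For each of the 4 the 3 libraries at 24 h lay below the 3 libraries at 6 h. Against DMSO at 24 h the fall of Gstm1 passed under all 11 alternatives, and those of Gsta3, Txnrd1 and Ephx1 did not.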

How the results depend on the processing

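With 1 library left out the members called, of 30, 18, 18, 14, 12 and 26, numbered 27 to 29 at 6 h, 14 to 17 at 12 h, 12 to 18 at 24 h, 9 to 13 for 12 h against 6 h, 9 to 10 for 24 h against 12 h and 22 to 24 for 24 h against 6 h. The lowest for 12 h against 6 h was 9, without riociguat 12 h replicate 2. Under all 11 alternatives 27 of 30, 13 of 18, 10 of 18, 9 of 14, 9 of 12 and 22 of 26 called members stayed called in these comparisons. Whether replicate numbers pair the samples is not known from the labels. Same-numbered libraries correlated between -0.136 and 0.0843 in their deviations from group means, none of 18 pairs over 0.1, and the 36 other pairs between -0.0739 and 0.0978. Yet 8 of 12 libraries correlated best with one of their own number. With deviations taken from means of only 3 libraries, these values cannot decide the question. With a replicate block the counts were 28, 17, 16, 11, 10 and 23. Over all genes, leaving out 1 library moved the number called from 907 to between 510 and 1262 (12 h), 1559 to between 955 and 1852 (6 h), 2141 to between 1395 and 2566 (24 h), 976 to between 596 and 836 (12 h against 6 h) and 494 to between 318 and 432 (24 h against 12 h). For the 91 pathway genes at 12 h it moved 17 to between 10 and 18. Without the low-count filter 838 genes were called for 24 h against 12 h (main 494), and 4 of 12 hepatocyte markers fell at 6 h. With only the 6 libraries compared 1 of these 12 fell (main 0). No called member changed sign. Among changes near 0 that passed no test, some did when 1 library was left out. Their log2 ranges were, at 12 h Gpx4 -0.020 to 0.010, Tkt -0.0022 to 0.048 and Gstm1 -0.043 to 0.040. They were, at 24 h Taldo1 -0.022 to 0.051 and Cat -0.074 to 0.024. They were, for 12 h against 6 h Nqo1 -0.052 to 0.015, Txn1 -0.033 to 0.046, Gpx2 -0.20 to 0.0069 and Maff -0.042 to 0.11. They were, for 24 h against 12 h Gpx1 -0.044 to 0.0048 and Txn1 -0.12 to 0.00035. They were, for 24 h against 6 h Gpx4 -0.061 to 0.025, Sod2 -0.070 to 0.086, Keap1 -0.018 to 0.052 and Txn1 -0.10 to 0.022. Gpx4 at 12 h was also at 0.0057 without the filter. The causes were not tested. Limits are 3 libraries per group of unstated origin, exposure tied to the time of addition at 6 h and 24 h, mixed cell types, and no measure of protein or of glutathione. The smallest change among members called against DMSO was 0.12 on the log2 scale (Pgd at 24 h).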
